A study of Homo sapiens with 6 samples.

Results

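The HOX cluster genes were taken from the deposited count table as every row annotated as protein-coding whose symbol is HOXA, HOXB, HOXC or HOXD followed by a position number, which gave 39 of the 58735 genes: 11 in HOXA on chromosome 7, 10 in HOXB on chromosome 17, 9 in HOXC on chromosome 12 and 9 in HOXD on chromosome 2. RNA was sequenced from H2452, an established human pleural mesothelioma cell line, in 3 sgCtrl and 3 sgNF2-1 libraries, all of which are used here. The sgCtrl cells carried a scrambled sgRNA and are labelled wild type, and the sgNF2-1 cells carried 1 sgRNA against NF2, which encodes merlin, an upstream component of Hippo signaling, and are labelled NF2-KO. Both received Cas9, the sgRNA and mCherry from a single lentiviral vector and were sorted for mCherry, so that each line is an infected pool and the comparison rests on 1 NF2 sgRNA. The comparison asks which transcripts differ between NF2-deficient and control cells.

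HOX genes encode homeodomain transcription factors that give cells their position along the body axis. The order of the genes in each cluster follows the order in which they are expressed, with low paralog numbers used toward the head and high numbers toward the tail, and genes that share a number in different clusters are paralogs. Differentiated cells keep part of this code, the silent remainder being held under Polycomb repression, and HOX proteins bind DNA together with TALE homeodomain cofactors of the PBX, MEIS and PKNOX families.

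The homeobox is the stretch of coding sequence for the DNA-binding homeodomain. It is shown for HOXB2 and HOXB9, whose groups did not overlap, and for the HOXB9 paralogs HOXC9 and HOXD9, because reads of HOXB9 have to be told apart from theirs. The sequences come from the GENCODE release 29 transcripts (GRCh38), are written 5′ to 3′ on the coding strand and have in capitals the codons of the invariant WFQNRR motif of the recognition helix. HOXB2 lies at chr17:48543533-48543712 and HOXB9 at chr17:48622921-48623100, both on the minus strand. HOXC9 lies at chr12:54002465-54002644 and HOXD9 at chr2:176123969-176124148 on the plus strand.
HOXB2: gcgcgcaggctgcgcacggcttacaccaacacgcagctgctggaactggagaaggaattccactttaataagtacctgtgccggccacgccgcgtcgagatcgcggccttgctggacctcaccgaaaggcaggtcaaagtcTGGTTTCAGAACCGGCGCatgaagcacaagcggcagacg
HOXB9: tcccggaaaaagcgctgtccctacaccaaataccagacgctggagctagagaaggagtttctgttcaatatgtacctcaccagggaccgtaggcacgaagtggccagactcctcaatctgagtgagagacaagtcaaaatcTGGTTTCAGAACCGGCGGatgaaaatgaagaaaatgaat
HOXC9: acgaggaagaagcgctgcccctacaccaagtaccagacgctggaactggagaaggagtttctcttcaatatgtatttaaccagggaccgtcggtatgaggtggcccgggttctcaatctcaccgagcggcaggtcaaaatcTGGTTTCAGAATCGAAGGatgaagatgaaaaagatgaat
HOXD9: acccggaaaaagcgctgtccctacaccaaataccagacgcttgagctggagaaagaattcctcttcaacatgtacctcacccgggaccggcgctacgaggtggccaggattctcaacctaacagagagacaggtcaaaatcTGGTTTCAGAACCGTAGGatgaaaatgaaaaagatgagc
Of the 180 homeobox bases, HOXB9 shared 148 with HOXC9 and 152 with HOXD9. The longest stretch that the transcripts of HOXB9 had in common with those of any other HOX gene was 40 bases, shared with HOXD9. No exon of HOXB9 overlapped an exon of another annotated gene. HOXB9 does lie within the annotated span of HOXB7 on the same strand (48607227 to 48633572). Of the exonic bases of HOXB2, HOXB3 and HOXB4, 3.72%, 13.2% and 17.1% overlapped exons of other genes. HOXB-AS1 on the opposite strand was among the overlapping genes of HOXB2 and HOXB3.

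The total count per library was 14782423 to 17416463. NF2 (chromosome 22, 29603556 to 29698598) had 1162, 1197 and 1025 counts in sgCtrl and 692, 802 and 590 in sgNF2-1. Its transcript was thus lower but still present, at a log2 fold change of -0.69 ± 0.10 (SE; adjusted p = 7.9e-06, from the quasi-likelihood test of edgeR used throughout). Of 13 mesothelial markers, 9 had a mean of at least 1 FPKM over the libraries. The summed level of the list was 788 to 882 FPKM in sgCtrl and 751 to 909 in sgNF2-1. Most of this sum came from the keratins KRT8, KRT18 and KRT19, at 270, 235 and 230 FPKM in sgCtrl. Of the 10 markers that were tested, 4 were higher and 3 lower in sgNF2-1, where 17.7% and 16.6% of all tested genes were at an adjusted p under 0.05. The higher markers were MSLN, BNC1, KRT7 and KRT18, and the lower ones WT1, PDPN and KRT19. The 7 lung epithelial markers together reached at most 0.205 FPKM, and the 4 endothelial markers 0.8 to 1.11 FPKM in sgCtrl and 0.267 to 0.455 in sgNF2-1. Of the 5 haematopoietic markers, PTPRC was at 0 in every library and CD14 made up nearly all of a summed 67.1 to 74.2 FPKM in sgCtrl and 31.9 to 35.1 in sgNF2-1. CD14 was lower in sgNF2-1, with a log2 fold change of -1.06 (edgeR, adjusted p = 5.7e-10), and so was the endothelial marker PECAM1, at -2.28 (adjusted p = 1.7e-07). Whether these marker changes had a part in the HOX values was not tested. In such bulk samples, fewer cells that express a gene and less RNA per cell cannot be told apart.

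H2452 cells expressed a narrow set of HOX genes, mostly from the anterior side of HOXB. FPKM divides the count by depth and by gene length, which for the HOX genes was all annotated exonic bases. A gene whose expressed transcripts are shorter is understated, so comparisons between genes are approximate. HOXB3 was given 7456 bases and HOXA10 3707, while 1 annotated transcript of each has 2642 and 2541. Which transcripts were expressed was not tested. In sgCtrl, 4 of the 39 genes had a mean of at least 1 FPKM: HOXB2, HOXB4, HOXB3 and HOXA10. Their means were 11.3 ± 1.87, 4.91 ± 0.483, 1.34 ± 0.176 and 1.3 ± 0.116 (SD, n = 3). The FPKM ranges of HOXB2 and HOXB4 did not overlap each other or those of the lower genes in sgCtrl, while those of HOXB3 and HOXA10 overlapped, so the order of the latter pair is not set. HOXB2, HOXB3 and HOXB4 together held 85.4% to 88.9% of the summed HOX FPKM in the sgCtrl libraries and 80.8% to 84.7% in the sgNF2-1 libraries. HOXA11 followed at 0.42 ± 0.202 FPKM in sgCtrl. In sgNF2-1, 3 genes had a mean of at least 1 FPKM. HOXB3 was just under it at 0.978 ± 0.216 (SD, n = 3), which depends on the length used for it.

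**Figure D1:**
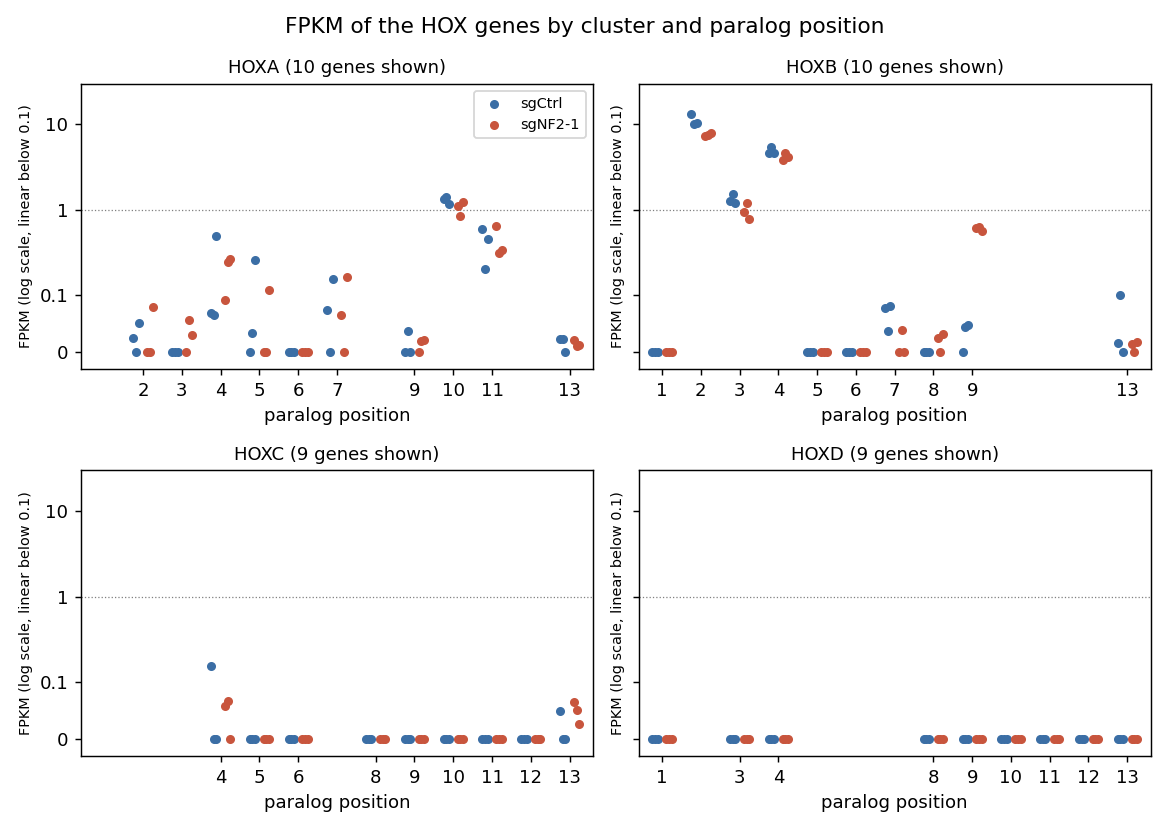
FPKM of the HOX genes whose single values are reported, in the 6 libraries, by cluster (panels) and paralog position (horizontal axis), on a log scale that is linear below 0.1; each point is 1 library, blue for sgCtrl and red for sgNF2-1, and the dotted line marks 1 FPKM. HOXB2, HOXB3, HOXB4 and HOXA10 lie around or above the line, HOXB9 is near 0.6 FPKM in sgNF2-1 and near 0 in sgCtrl, and all 9 HOXD genes are at 0.

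The rest of the clusters was nearly silent at this depth. No read was counted in any of the 6 libraries for 20 genes, namely HOXA6, HOXB1, HOXB5, HOXB6, HOXC5, HOXC6, HOXC8, HOXC9, HOXC10, HOXC11, HOXC12 and the 9 HOXD genes HOXD1, HOXD3, HOXD4, HOXD8, HOXD9, HOXD10, HOXD11, HOXD12 and HOXD13. A total of 94694781 counts over the libraries puts the limit for each of these genes at 0.0317 CPM (counts relative to the library total, as is usual for sequencing), the level of 3 counts. The limit covers counting error only.

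The other 13 genes with any count stayed at or below 14 counts in each library. In HOXA, HOXA4 had 2, 2 and 14 counts in sgCtrl and 3, 7 and 7 in sgNF2-1. HOXA5 had 0, 1 and 7 counts in sgCtrl and 0, 0 and 3 in sgNF2-1, and HOXA7 had 3, 0 and 6 in both groups. HOXA3 had no count in sgCtrl and 0, 4 and 2 counts in sgNF2-1. These groups overlapped for each gene, as did those of HOXA2, HOXA9 and HOXA13, which had at most 3 counts in a library. In HOXC, HOXC4 had 7 counts in sgCtrl replicate 1 and none in the others, against 3, 3 and 0 in sgNF2-1, and HOXC13 had 2, 0 and 0 against 3, 2 and 1. HOXB13 had 1, 6 and 0 counts in sgCtrl and 1, 0 and 1 in sgNF2-1, and HOXB7 and HOXB8 had at most 2 in any library. When the filter on low counts was dropped, none of these 13 genes passed, the smallest adjusted p being 0.21 (edgeR, HOXA3), and 0 had an unadjusted p under 0.05.

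In sgNF2-1, HOXB9 was higher and HOXB2 and HOXB3 were lower than in sgCtrl. Of the 39 genes, 6 had enough counts to be tested, which were HOXB2, HOXB3, HOXB4, HOXB9, HOXA10 and HOXA11, and HOXB9 had them only in sgNF2-1. At an adjusted p under 0.05 (edgeR, Benjamini-Hochberg over all tested genes), 1 was higher in sgNF2-1, where 17.7% of the 14179 tested genes were, and 2 were lower, where 16.6% were, with 34.3% of the tested genes past the threshold in either direction. The median log2 fold change was -0.24 over these HOX genes and 0.00 over the genes tested. Because HOXB9 entered the tested set through the group where it is high, these counts and the median describe the tested genes and nothing further is read from them. Nothing in the labels says that the replicates came from separate cultures, so the p-values measure the spread between these samples.

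HOXB9 (ENSG00000170689, chromosome 17, 48621159 to 48626356) is a posterior member that acts in thoracic patterning. It had 0, 2 and 2 counts in sgCtrl and 30, 27 and 22 in sgNF2-1. In FPKM these are 0, 0.0448 and 0.0483 against 0.62, 0.638 and 0.561. Every sgNF2-1 library lay far above every sgCtrl library. With at most 2 counts in a library, the level in sgCtrl is only roughly known. Pooled within groups, 79 counts against 4 give a ratio of 19.8 after scaling to depth, with a 95% interval of 7.43 to 74.4 (exact Clopper-Pearson, counting error only). The fitted log2 fold change was 4.18 ± 0.60 (SE; edgeR, adjusted p = 6.6e-06). HOXB9 passed the filter on low counts only through sgNF2-1, and a minimum of 10 counts in every library removes it. With so few sgCtrl counts the fitted size depends on the prior count. The pooled ratio comes from the same libraries and the same selection, and its interval leaves out the spread between libraries, so neither size is exact. Even in sgNF2-1 its mean of 0.606 ± 0.0403 FPKM (SD, n = 3) was below that of HOXB2, HOXB3, HOXB4 and HOXA10.

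The genes numbered between HOXB4 and HOXB9 stayed near 0 in both groups. The annotated start of HOXB9 is 46245 bases from that of HOXB4 on the same strand, and that of HOXB7 lies farther, at 53461 bases. HOXB5, HOXB6, HOXB7 and HOXB8 together had 5 counts in all in the sgCtrl libraries and 3 in the sgNF2-1 libraries. The other paralogs of position 9 had almost none, with 0, 2 and 0 counts of HOXA9 in sgCtrl, 0, 1 and 1 in sgNF2-1, and 0 for HOXC9 and HOXD9. HOXB13, the next gene of the cluster, had at most 1 count in each sgNF2-1 library.

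HOXB2 (ENSG00000173917, chromosome 17, 48540894 to 48544989) takes part in hindbrain segment identity and was the highest HOX gene of H2452. It had 521, 406 and 386 counts in sgCtrl and 324, 288 and 285 in sgNF2-1. Scaled to depth with TMM, these are 33.1, 24.7 and 25.4 CPM against 18.4, 18.7 and 20 CPM. The highest sgNF2-1 library stayed under the lowest sgCtrl library, which gave p = 0.1 in an exact two-sided permutation of the libraries, the floor of a 3 against 3 design. The groups of 45.3% of all tested genes were likewise apart, in one direction or the other. The level in sgNF2-1 was 68.6% of that in sgCtrl, a log2 fold change of -0.54 ± 0.12 (SE; edgeR, adjusted p = 0.0012).

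HOXB3 (ENSG00000120093, chromosome 17, 48548870 to 48604912), also a hindbrain patterning gene, had 158, 199 and 145 counts in sgCtrl and 131, 148 and 89 in sgNF2-1. As CPM these are 10, 12.1 and 9.56 against 7.44, 9.59 and 6.25, so that sgNF2-1 replicate 2 lay just above sgCtrl replicate 3 and the groups overlapped. The log2 fold change was -0.44 ± 0.17 (SE; edgeR, adjusted p = 0.044). The call was lost in 6 of 12 refits and under the study's limits, which ask for a log2 fold change beyond 0.5. Among the refits were DESeq2 (adjusted p = 0.062) and leaving out sgCtrl replicate 1 (edgeR adjusted p = 0.054), sgCtrl replicate 2 (0.21), sgNF2-1 replicate 1 (0.13) or sgNF2-1 replicate 3 (0.18).

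HOXB4 (ENSG00000182742, chromosome 17, 48575513 to 48580111), a regulator of haematopoietic stem cell renewal, had 290, 355 and 278 counts in sgCtrl and 268, 289 and 235 in sgNF2-1. Its CPM of 18.4, 21.6 and 18.3 in sgCtrl overlapped the 15.2, 18.7 and 16.5 in sgNF2-1. The log2 fold change of -0.21 (standard error 0.13) did not pass, with an adjusted p of 0.2 by edgeR. Whether HOXB4 differed from its neighbours HOXB2 and HOXB3 in its response was not tested.

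**Figure D2:**
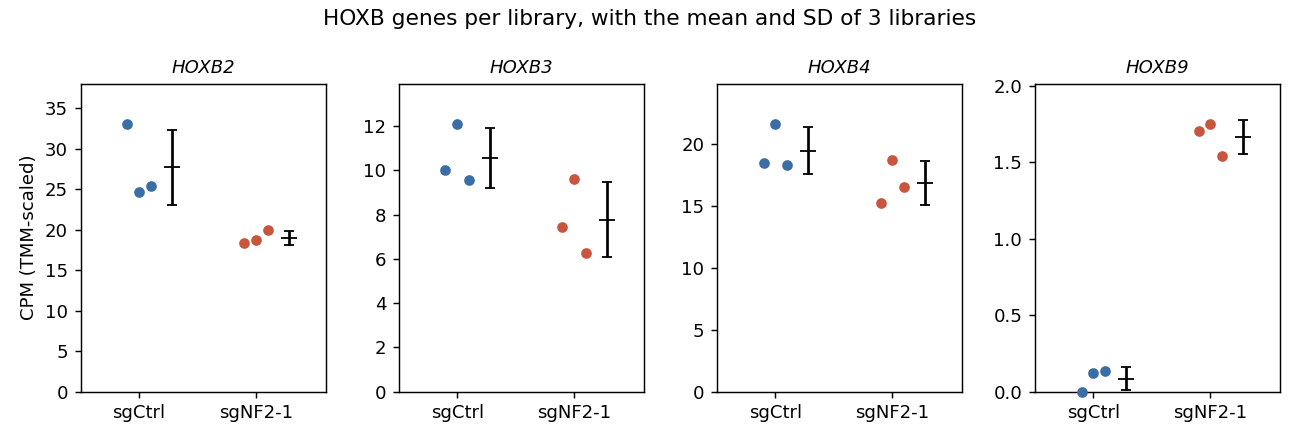
TMM-scaled CPM of HOXB2, HOXB3, HOXB4 and HOXB9 per library (points) in sgCtrl and sgNF2-1, with the mean and SD of the 3 libraries of each group (bars). Each panel has its own axis from 0. The groups are apart for HOXB2, lower in sgNF2-1, and for HOXB9, higher in sgNF2-1, and overlap for HOXB3 and HOXB4.

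In HOXA, neither of the tested posterior genes passed. HOXA10, which is known from limb, uterine and blood cell development, had 82, 90 and 70 counts in sgCtrl and 77, 52 and 70 in sgNF2-1, a log2 fold change of -0.28 ± 0.21 (SE; edgeR, adjusted p = 0.33). HOXA11, a limb and kidney patterning gene, had 23, 8 and 17 counts against 28, 12 and 12, a log2 fold change of 0.09 (standard error 0.44). Its libraries spread over more than the difference between the groups, and the adjusted p was 0.9 from the same test. HOXA10 and HOXA11 share 26.3% and 31.1% of their exonic bases with other genes, mainly antisense transcripts, and since the library kit does not mark strand the reads of such pairs cannot be separated.

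By cluster, the summed FPKM of HOXB was 17.6 ± 1.59 in sgCtrl and 13.5 ± 0.651 in sgNF2-1, and that of HOXA was 2.27 ± 0.336 and 2.02 ± 0.4 (SD, n = 3). HOXC summed to 0.068 ± 0.118 and 0.0901 ± 0.0546 FPKM, and HOXD was at 0. HOXB2 was the largest part of the HOXB sum in every library. By position, both of the 2 tested among 8 anterior genes (1 to 3) were lower, with the call of HOXB3 unstable. The 1 tested among 15 central genes (4 to 8) did not pass, and of the 3 tested among 16 posterior genes (9 to 13) 1 was higher. These few tested genes, beside 17.7% higher and 16.6% lower over all genes, do not allow sections to be compared.

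**Figure D3:**
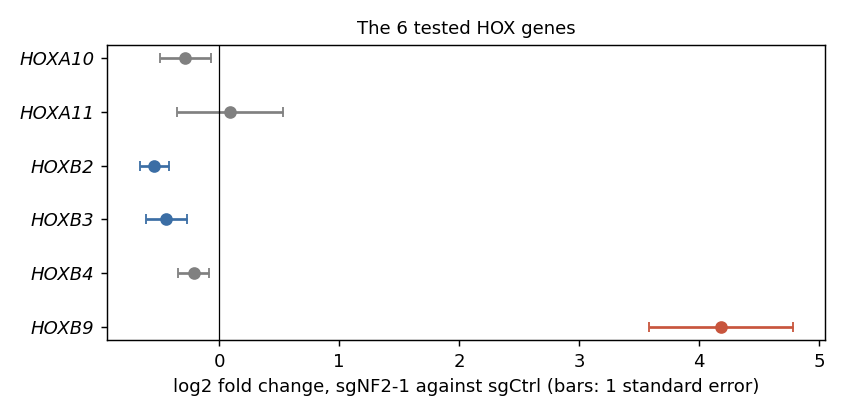
Log2 fold change of sgNF2-1 against sgCtrl for the 6 tested HOX genes from edgeR, with bars of 1 standard error; red is higher and blue lower at an adjusted p under 0.05, grey did not pass. HOXB9 stands at 4.18, and the other 5 genes lie between -0.54 and 0.09.

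Of 8 TALE cofactors of the HOX proteins, 5 had a mean of at least 1 FPKM in either group. Of 6 tested members 1 was lower in sgNF2-1 and none higher, with a median log2 fold change of -0.01. MEIS2 was at 3.09 FPKM in sgCtrl and 2.36 in sgNF2-1, with a log2 fold change of -0.38 ± 0.11 (SE; edgeR, adjusted p = 0.0077). The more abundant PBX2 and PBX3, at 10.5 and 9.11 FPKM in sgCtrl, and PKNOX1 had log2 fold changes of 0.12, 0.23 and 0.21 that did not pass. The call of MEIS2 was lost without sgCtrl replicate 1 (edgeR adjusted p = 0.054) or sgNF2-1 replicate 1 (0.053).

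Of the 15 homeobox relatives of the HOX genes outside the clusters, such as the CDX, GSX, EVX and MEOX genes, 10 had no count in any library. Only GBX2, a midbrain and hindbrain boundary gene, was tested, at 1.45 FPKM in sgCtrl and 2.44 in sgNF2-1, and it rose by a log2 fold change of 0.76 ± 0.21 (SE; edgeR, adjusted p = 0.0073).

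Of 18 noncoding transcripts of the clusters, 10 had no count, HOTAIR and HOTTIP among them, and 2 were tested. HOXB-AS1, transcribed against HOXB2 and HOXB3, had a log2 fold change of -0.41 (adjusted p = 0.28) and HOTAIRM1, in HOXA, of -0.21 (adjusted p = 0.62, both by edgeR). Neither passed.

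Of 22 listed genes that flank the clusters, 15 had a mean of at least 1 FPKM in either group. Too low to test were 6, and 3 of these had no count in any library, namely EVX1 beside HOXA and PRAC1 and PRAC2 beside HOXB. Of 16 tested, 6 were lower and 2 higher, with a median log2 fold change of -0.10. Beside HOXD, which had no reads, LNPK, an endoplasmic reticulum protein, fell by 0.69 on the log2 scale from 3.98 FPKM, and MTX2, a mitochondrial import protein, rose by 0.30 from 24.8 FPKM. SKAP2 beside HOXA fell by 0.61 and CBX5 (heterochromatin protein HP1 alpha) beside HOXC fell by 0.36 on that scale. On the anterior side of HOXB, SNX11 had a log2 fold change of 0.28. HIBADH, HNRNPA1 and ATP5MC2, at 46.4, 103 and 43.3 FPKM in sgCtrl, had log2 fold changes of 0.02, -0.09 and 0.14 that did not pass. SNX11 and MTX2 lost their call without sgCtrl replicate 2, and MTX2 also without sgNF2-1 replicate 3 (edgeR adjusted p = 0.12, 0.066 and 0.05, the last just over the threshold). The number of lower genes was 3 without sgNF2-1 replicate 2.

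Polycomb complexes keep HOX genes silent, and all 30 listed members were tested. In sgNF2-1, 3 were higher and 6 lower, with a median log2 fold change of -0.05. EED, which binds the H3K27me3 mark, fell by 0.64 on the log2 scale, the chromobox reader CBX7 by 0.52, PCGF6 by 0.40 and MTF2 by 0.37, and PHC2 rose by 0.40. RING1, PHF1 and RBBP7 had log2 fold changes of 0.04, 0.01 and -0.17 that did not pass. The number of lower members was 3 or 4 whichever library was left out, and 3 without sgCtrl replicate 1, sgCtrl replicate 2 or sgNF2-1 replicate 3. Each of CBX7, PCGF6 and MTF2 lost its call without 2 to 4 of the 6 libraries taken singly, with edgeR adjusted p-values of up to 0.12, 0.16 and 0.16.

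Of the 19 tested genes of the opposing KMT2 methyltransferase complexes, menin and the H3K27 demethylases, 1 was higher and 1 lower, with a median of -0.04. The shared subunit WDR5 rose by a log2 fold change of 0.53 and the enzyme KMT2C fell by 0.40 on the log2 scale. ASH2L, DPY30 and HCFC1 had log2 fold changes of -0.03, -0.15 and -0.05 that did not pass. Without sgNF2-1 replicate 3, KMT2C had an edgeR adjusted p of 0.058, and without sgCtrl replicate 3 the lower genes numbered 2.

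Retinoic acid induces anterior HOX genes in embryos and stem cells. Of 9 tested genes of its synthesis, breakdown and receptors, 3 were lower and none higher, with a median log2 fold change of -0.24. The retinol dehydrogenase RDH10 fell by 0.65, the binding protein CRABP2 by 1.45 (standard error 0.45) and the receptor RARG by 0.50 on the log2 scale. The groups of CRABP2 overlapped, with 2.73, 0.67 and 2.97 CPM in sgCtrl against 0.568, 0.842 and 0.913 in sgNF2-1. RXRB, RARA and DHRS3 had log2 fold changes of 0.13, -0.05 and -0.24 that did not pass. Without sgCtrl replicate 1, only RDH10 kept its call (edgeR adjusted p of 0.076 for CRABP2 and 0.12 for RARG). CRABP2 also lost it without sgCtrl replicate 3 or sgNF2-1 replicate 1, and RARG without sgNF2-1 replicate 2. The background shares for the lists are those given above for HOX genes, 17.7% higher and 16.6% lower.

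**Figure D4:**
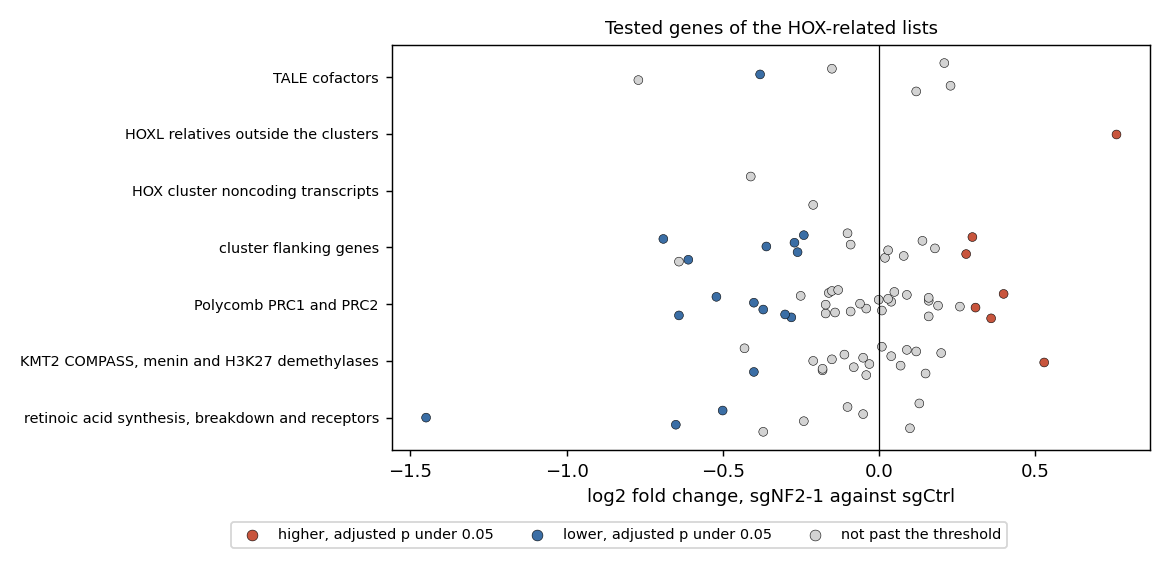
Log2 fold change of sgNF2-1 against sgCtrl for each tested gene of the 7 HOX-related lists (rows); points are genes, red higher and blue lower at an adjusted p under 0.05, grey not past the threshold. Most genes lie within 0.5 of 0, with CRABP2 at -1.45 farthest on the lower side and GBX2 at 0.76 on the higher side.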

How the data were processed

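H2452 RNA was sequenced as paired-end NovaSeq reads from NEBNext Ultra libraries. The submitters' processing notes name HISAT2, StringTie 1.3.3b, featureCounts 1.5.0-p3 and hg38. Whether counting used strand is not given in the sources used here. The authors deposited raw counts per gene and FPKM values. The deposited FPKM equal the counts divided by gene length and by 1 depth per library, within 0.1%, for the genes on which this was tested. All 58735 identifiers are in GENCODE release 29. Groups came from the sample titles.

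Counts were filtered with filterByExpr (minimum count 10, minimum total 15), normalized by TMM and fitted with edgeR 4.0.16 (R 4.3.3) by group, with Benjamini-Hochberg adjustment over 14179 genes. The study used DESeq2, here (1.42.0) an alternative. Standard errors are the log2 fold change over the square root of F. For single values, libraries were permuted exactly (two-sided). Replicate libraries were not duplicates of each other (chi-square per degree of freedom 5.15 to 12.6, and 40.1 to 52.8 between groups). On simulated counts, edgeR recovered 79.6% of 98 genes changed by a log2 of 1, 99% of 100 changed by 2, and called 11 of 13764 unchanged genes. Far fewer genes were changed there than the 34.3% called in these data, so these rates do not carry over to them.

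Every HOX gene is in the counts, but the values of 1 of them, 1 member of a list and some sequences are not reported here. Other genes are NF2, the markers and, from 7 HOX-related lists, those with a mean of at least 1 FPKM in either group, up to 5 that passed (largest change) and 3 that did not (highest level). Members and lists were chosen with earlier results of these data known. The alternatives were DESeq2, edgeR scaled by DESeq2's size factors or by library totals, an unfiltered fit, a stricter minimum of 10 counts per library, a replicate block, each library left out, the study's limits (unadjusted p under 0.05, log2 fold change beyond 0.5), and 0.5 FPKM for levels.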

Additional observations from a re-analysis of the deposited data

How the results depend on the processing

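NF2 kept its direction and its call in every alternative. HOXB9 did so in every alternative that could be fitted. It was tested only through sgNF2-1, the group where it is high, and the refits use the same libraries, so nothing further is read from this. The number of HOX genes higher in sgNF2-1 was 1 throughout, except 0 when at least 10 counts were required in every library, a filter that removes HOXB9. The number lower was 2, and 1 with DESeq2, with no filter and with the study's limits, and from 1 to 2 when single libraries were left out, HOXB3 being the call lost with DESeq2, the unfiltered fit, the study's limits and in the leave-one-out fits. HOXB3 was at -0.45 (log2) with DESeq2, at -0.43 with no filter and at -0.62 to -0.31 with single libraries left out. HOXB2 kept its call in 12 of 12 refits, at log2 fold changes of -0.62 to -0.40. The 4 HOX genes at or above 1 FPKM in sgCtrl were again 4 at a limit of 0.5 FPKM and without each sgCtrl library. With the replicate block the counts were 1 higher and 2 lower, and HOXB3 had an adjusted p of 0.024 (edgeR). Over all tested genes the block gave 2698 higher and 2501 lower, against 2515 and 2351 without it. Same-numbered libraries had correlations of -0.032, 0.057 and 0.05, which show no pairing by number. With 3 libraries per group they cannot exclude it. Over the 41 named genes, 444 of 490 alternative values kept direction and side of the threshold, 26 lost the call and 2 gained it. In the lists, the study's limits gave 0 lower TALE genes, 0 higher and 2 lower flanking genes, 0 higher and 2 lower Polycomb genes and 0 lower KMT2 genes, and the block gave 1 higher TALE gene, PBX3. With single libraries left out, the lower genes numbered 0 to 1 (TALE), 3 to 5 (flanking), 3 to 4 (Polycomb), 0 to 2 (KMT2) and 1 to 3 (retinoic acid), and the higher flanking genes 0 to 2. The 18 that turned in sign were of genes that did not pass: with library totals only, HIBADH at -0.01 and PHF1 at -0.02, and with single libraries left out HOXA11 at -0.32 to 0.44, HIBADH at -0.01 to 0.07, PHF1 at -0.09 to 0.06, RING1 at -0.07 to 0.12, ASH2L at -0.06 to 0.02, HCFC1 at -0.16 to 0.01 and RARA at -0.19 to 0.02. Causes were not tested. Too few counts left 33 HOX genes untested, 20 of them with no count in any library. A gene at 0 in 1 library could be at up to 0.172 to 0.203 CPM, relative to the plain library total.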
